A study of Homo sapiens with 6 samples.

Results

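Described here are 10 genes that encode transcription and splicing factors of epithelial and luminal cells, out of 58302 genes in the table. They are SPDEF, ELF3, ELF5, EHF, ESRP1, ESRP2, GRHL2, FOXA1, FOXA3 and GATA3, and were chosen by gene name. SPDEF and FOXA3 were selected on the contrast described here, because they were among its largest changes, so their values are a description and carry no test. The other 8 genes were added as relatives of similar function. Of the 10 genes, 6 passed the filter on low counts (SPDEF, ELF3, ESRP2, FOXA1, FOXA3 and GATA3). SPDEF passed it through its control libraries and FOXA3 through its CYT libraries, while ELF5, EHF, ESRP1 and GRHL2 did not pass.

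RNA was sequenced from MDA-MB-231-DR, a doxorubicin-resistant derivative of MDA-MB-231, the mesenchymal-like triple-negative breast cancer line. The resistant line is kept in medium with a low concentration of doxorubicin in the paper, and there were 3 libraries of control cells and 3 of cells given cyperotundone (CYT), a sesquiterpene ketone of the nutgrass Cyperus rotundus, and both groups carry the doxorubicin resistance. Neither the dose nor the duration is named for these libraries in the sources used, nor whether their replicates were separate cultures (the paper speaks of independent experiments for its data in general), so p-values measure the spread between these samples. Summed over genes, control replicates 1 to 3 held 17357053, 17770102 and 14050849 counts, and CYT replicates 1 to 3 held 14106017, 13056270 and 13423683. CYT replicate 2 stood apart from its group. Its log2 levels correlated across genes with CYT replicates 1 and 3 at r = 0.905 and 0.904, against 0.970 between those replicates, so tested values of the 10 genes are also given without it. Of 10 markers of MDA-MB-231 (VIM, CD44, AXL, CAV1, CAV2, MSN, FOSL1, PLAU, ANXA1 and ETS1), all were counted in every library. The estrogen receptor gene ESR1 had at most 4 counts in any library, near the floor of 3 counts.

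Luminal identity in breast epithelium is held by a network in which FOXA proteins bind compacted chromatin and open it for GATA3 and hormone receptors. Epithelial ETS factors (SPDEF, ELF3, ELF5 and EHF) and the grainyhead factor GRHL2 then drive secretory, junction and keratin genes. ESRP proteins act after transcription, binding pre-mRNA so that epithelial exons are spliced into transcripts, and the whole network is low in mesenchymal-like lines.

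SPDEF (ENSG00000124664), the ETS factor known for the maturation of goblet and other secretory cells, was counted in control cells and had no count after CYT. It lies at chr6:34537802-34556333 (GRCh38) on the minus strand. Control replicates 1 to 3 had 238, 134 and 157 raw counts, against 0 in each of the 3 CYT libraries. In CPM, counts scaled to library size by the TMM method, control levels were 14.8, 7.13 and 11.3, with a mean of 11.1 ± 3.82 (SD, n = 3). The groups did not overlap, and control replicate 1 was the highest library. Taking 3 counts per library as the floor of a library with no count, the level was at least 50.0-fold lower after CYT. This bound covers counting error only. In bulk RNA, fewer cells that express a gene cannot be told apart from less RNA per cell. SPDEF was the only gene in the table with at least 30 counts in every control library and none in any CYT library.

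The stretch before the start of SPDEF is shown because its RNA was counted in 1 group alone. RefSeq promoter windows (GRCh38.p14) matched 7 of the 10 genes with 13 start sites, and the 250 bases before each start were searched. ESRP1, ESRP2 and GRHL2 were not matched. Printed for SPDEF are the 246 bases at chr6:34556334-34556579, minus strand, 5′ to 3′, that lie outside annotated exons, with motif matches in capitals.
SPDEF: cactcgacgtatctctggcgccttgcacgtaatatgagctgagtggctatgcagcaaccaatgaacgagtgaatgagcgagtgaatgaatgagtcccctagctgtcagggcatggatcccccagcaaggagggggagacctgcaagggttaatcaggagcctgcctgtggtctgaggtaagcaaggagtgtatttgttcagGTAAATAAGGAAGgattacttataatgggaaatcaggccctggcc
The capitals hold 2 adjoining matches, the forkhead motif TATTTAC on the opposite strand (49 to 43 bases before the start) and the ETS motif AGGAAG (42 to 37 bases before it). On either strand, TATTTAC was found in 2.39% and AGGAAG in 28.7% of all 35116 windows of 250 bases. The other motifs searched on both strands were CGGAAG and GGATGT (ETS), TGTTTAC and TGTTTGC (forkhead), AGATAA (bound by GATA factors), AACNNGTT (grainyhead), CAGGTG (E-box) and TATAAA (the core promoter motif named TATA box), and none of these was found in the SPDEF window. They were held by 16.5%, 8.43%, 2.98%, 3.23%, 9.17%, 3.0%, 17.5% and 10.7% of all windows in that order. A match is a run of letters and not a measured binding site.

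ELF3 (ENSG00000163435), an ETS factor expressed widely in epithelia, fell after CYT treatment. It lies at chr1:202007945-202017188 on the plus strand. Raw counts for it were 86, 30 and 70 in control and 10, 4 and 10 in CYT replicates 1 to 3. The groups did not overlap, and replicate 2 was the lowest of each group. The mean was 3.99 ± 2.08 CPM (SD, n = 3) in control and 0.595 ± 0.272 CPM (SD, n = 3) after CYT. The log2 fold change of ELF3 was -2.73 (SE, the standard error, 0.62, adjusted p = 0.0106 over all genes in edgeR). Without CYT replicate 2 it was -2.39 (adjusted p = 0.0166 in edgeR). The antisense gene ELF3-AS1 overlaps ELF3 with 10, 5 and 10 counts in control and 3, 8 and 3 after CYT. Strand use in the counting is not given in the sources used here, so reads of the pair cannot be told apart. The ELF3 window, which lies inside the gene span given above and wholly within annotated exons, held CAGGTG on the opposite strand (120 to 115 bases before the start) and TATAAA (34 to 29 bases before it).

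ELF5, a regulator of milk-secreting alveolar cells, and EHF, an ETS factor of glandular epithelium, were hardly counted in either group. ELF5 had 0 counts in all 3 control libraries and 3, 0 and 0 after CYT. EHF had 1, 0 and 0 counts in control and 4, 0 and 8 after CYT. Both groups overlapped for each gene. Per length, in FPKM (fragments per kilobase, scaled to library size), SPDEF made up 93.2%, 95.7% and 91.8% of the summed level of these 4 ETS genes in control replicates 1 to 3. The sum was 6.40, 3.42 and 5.29 FPKM in control and 0.119, 0.0265 and 0.132 FPKM after CYT. The broadly expressed relatives ELF1, ELF2 and ELF4 summed to 12.4, 10.3 and 10.3 FPKM in control and 15.5, 13.7 and 15.1 FPKM after CYT, and none of them was called. The sum of ELF1, ELF2 and ELF4 exceeded that of SPDEF, ELF3, ELF5 and EHF in every library.

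**Figure D1:**
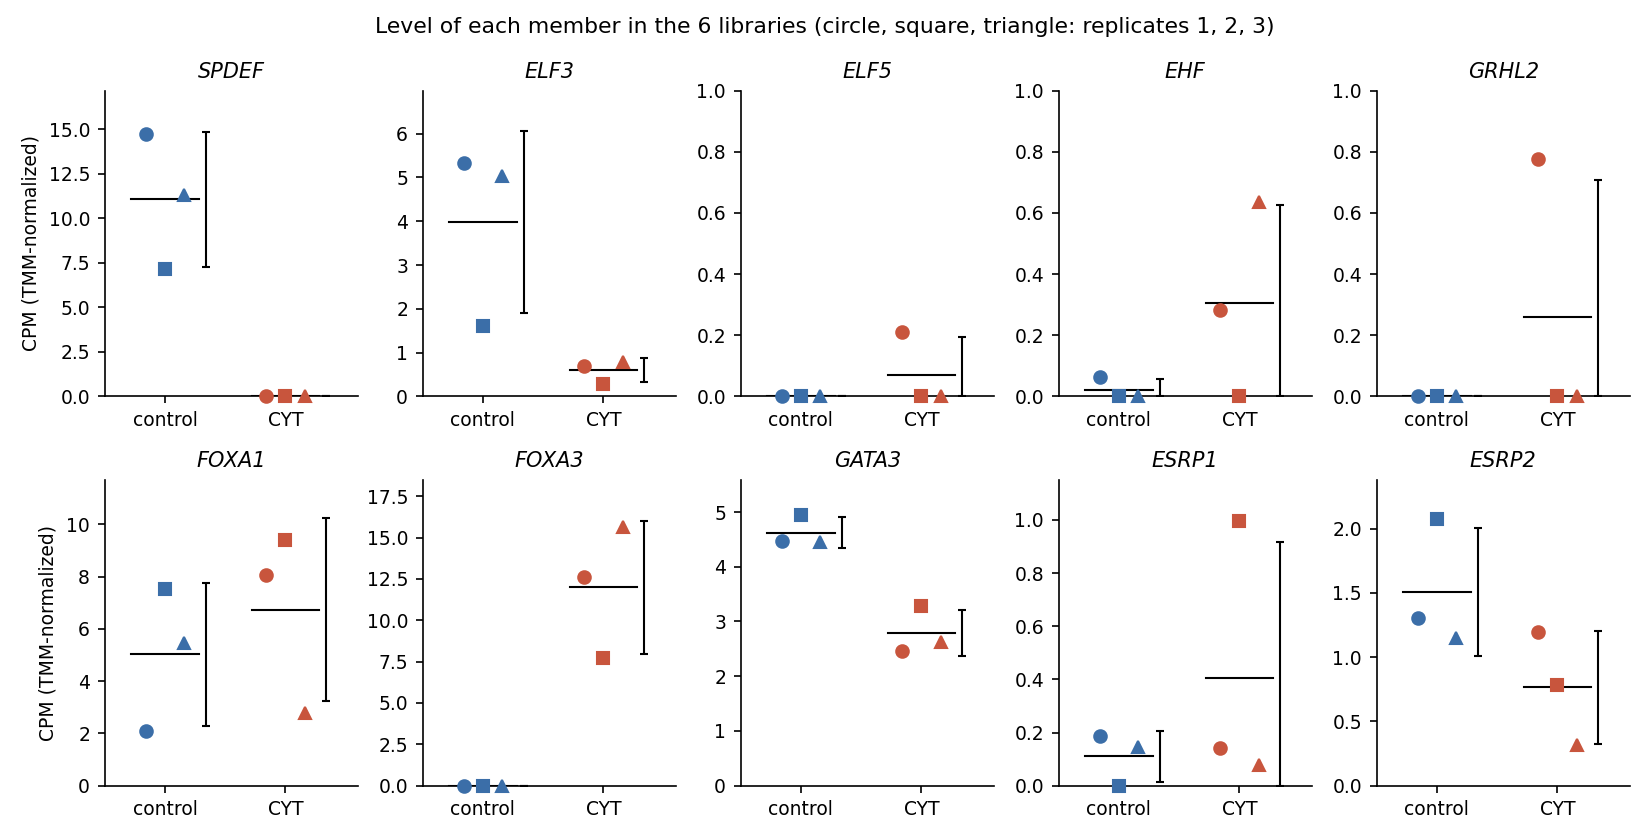
Level of each of the 10 genes in TMM-normalized CPM (vertical axis, linear and starting at 0, with its own scale per gene) in control and CYT libraries. Circles, squares and triangles are replicates 1, 2 and 3, horizontal lines are means and bars are the SD (n = 3), ended at 0 where they would pass it. SPDEF is at 0 in the 3 CYT libraries and FOXA3 at 0 in the 3 control libraries.

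FOXA3 (ENSG00000170608), a pioneer factor of liver, gut and mucous cells, showed the opposite pattern to SPDEF. It lies at chr19:45863989-45873797 on the plus strand. There were 0 counts in each of the 3 control libraries and 179, 108 and 197 counts in CYT replicates 1 to 3. CYT levels were 12.6, 7.69 and 15.7 CPM, with a mean of 12.0 ± 4.02 (SD, n = 3). The groups did not overlap, and CYT replicate 2 was the lowest of the CYT libraries. Against the floor of 3 counts per library, FOXA3 was at least 64.1-fold higher after CYT. Among 1756 tested genes with a mean under 1 CPM in control, 60.4% were called higher and 0.228% lower, a call being an adjusted p under 0.05 in edgeR with an absolute log2 fold change over 1. Genes this low in control can enter the test through their CYT counts, so these shares depend on the filter and do not show how common such rises were. Genes with at least 10 counts numbered 14857, 15083 and 14619 in control and 16075, 16018 and 15773 in CYT replicates 1 to 3, and the part of this difference in the FOXA3 counts was not tested. In all, 20 genes had no count in control and at least 30 in every CYT library. At a minimum of 100 counts there were 3, FOXA3, INSM2 and OVOL1 (INSM2 was named after its values were seen).

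FOXA3 is shown beside SPDEF because the 2 genes were counted in opposite groups. In its window, 68 bases lie outside annotated exons in 1 stretch, at chr19:45864192-45864259 (GRCh38.p14, RefSeq), plus strand, 134 to 67 bases before the RefSeq start. The whole window lies inside the FOXA3 gene span given above, whereas the printed SPDEF bases lie outside the SPDEF span. So the FOXA3 stretch is before the RefSeq start but within the gene as counted. No motif match falls in this stretch, which therefore has no capitals.
FOXA3: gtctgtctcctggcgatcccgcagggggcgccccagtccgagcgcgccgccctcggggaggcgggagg
The G and C share of this stretch was 79.4%, with 9 CG pairs. Over the whole 250-base window it was 75.2% with 28 CG pairs in FOXA3 and 50.8% with 6 CG pairs in SPDEF, against medians of 58.0% and 11 over all windows. The only searched motif in the FOXA3 window was TATAAA, 30 to 25 bases before the start. Neither FOXA3 nor ELF3 had a match to any of the 3 forkhead motifs or to the 3 ETS motifs in these windows. FOXA1 held TGTTTGC (opposite strand, 235 to 229 bases before the start) and CAGGTG (122 to 117 bases), ELF5 held TGTTTAC (opposite strand, 193 to 187 bases) and AGGAAG (110 to 105 bases). The windows of FOXA1 and ELF5 also lie inside their gene spans.
In 1 of its 2 windows, both inside its gene span, EHF held TGTTTAC (196 to 190 bases) and AGATAA (236 to 231 bases). GATA3 has 6 windows, of which 1 held AGGAAG with CGGAAG and TGTTTGC, 1 held TATAAA on the opposite strand and 4 held none of the motifs.

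FOXA1, the pioneer factor of luminal breast cells, was counted in every library and did not pass the test. Its raw counts were 34, 141 and 76 in control and 114, 132 and 35 in CYT replicates 1 to 3. The groups overlapped, with the lowest values in control replicate 1 and CYT replicate 3. The mean was 5.03 ± 2.73 CPM (SD, n = 3) in control and 6.74 ± 3.49 CPM (SD, n = 3) after CYT, and the log2 fold change was 0.42 (SE 0.56, adjusted p = 0.608 in edgeR). Without CYT replicate 2 it was 0.09 (adjusted p = 0.919 in edgeR), and over all fits with a library left out it ran from 0.04 (without control replicate 1) to 0.81 (without control replicate 2), with no call. FOXA1 lies at chr14:37589984-37596059 on the minus strand, and its start overlaps TTC6, which had 0 counts in control and 6, 13 and 8 after CYT.

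Within the FOXA genes, FOXA2, a factor of endoderm and liver, was by far the most abundant per length in every library except CYT replicate 1. Its raw counts were 811, 2133 and 2017 in control and 100, 451 and 1204 after CYT, and the groups overlapped. In FPKM, FOXA2 stood at 17.5, 44.9 and 53.7 in control and at 2.65, 12.9 and 33.6 after CYT. It was not called, with a log2 fold change of -1.20 (SE 0.75, adjusted p = 0.263 in edgeR), but with the replicate number as a block it was called lower (-1.73, adjusted p = 0.00925). Without CYT replicate 3 it was called lower as well (-2.40, adjusted p = 0.0463 in edgeR). The other 11 alternative fits left FOXA2 uncalled, with adjusted p up to 0.502. FOXA2 made up 98.3%, 97.3% and 98.4% of the summed FOXA level in control and 29.6%, 72.7% and 84.4% in CYT replicates 1 to 3. FOXA3 took 56.1%, 18.4% and 14.6% in the same CYT libraries. CYT replicate 1 was therefore the library in which FOXA3 exceeded FOXA2.

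**Figure D2:**
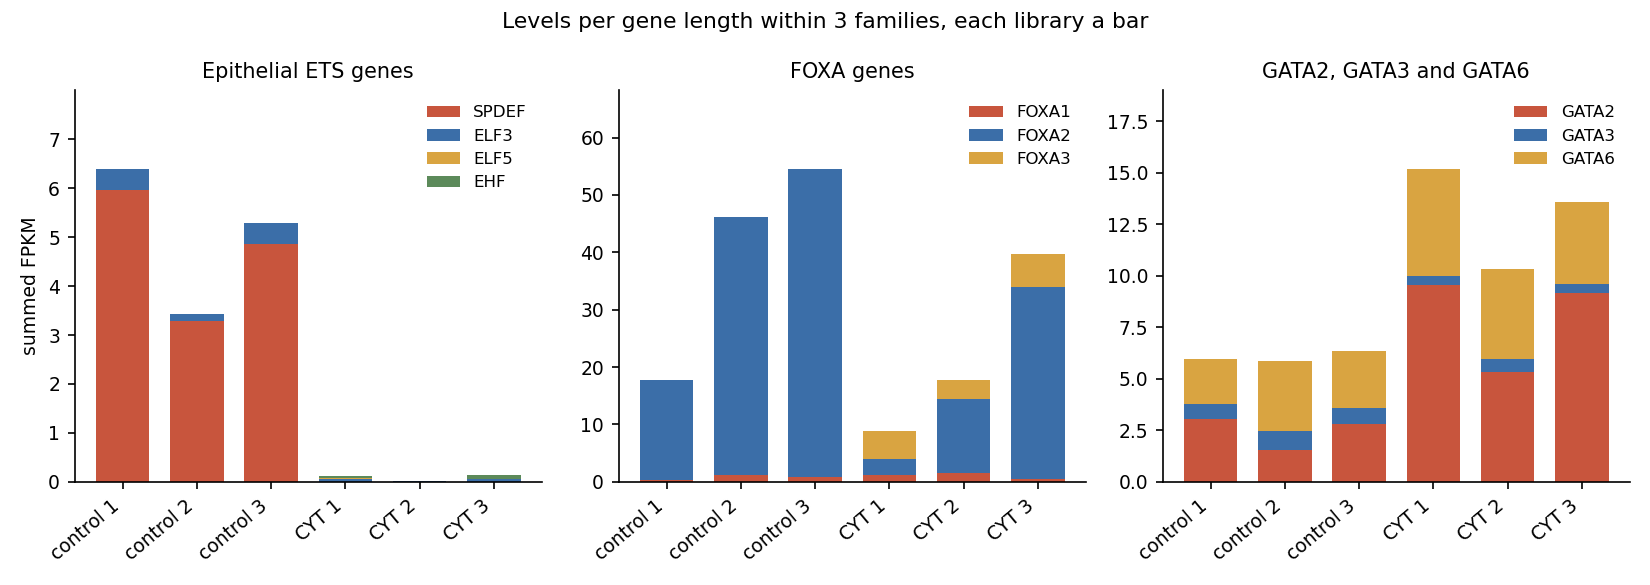
Summed FPKM (vertical axis, starting at 0) of the epithelial ETS genes, the FOXA genes and GATA2, GATA3 and GATA6, with each library as a bar and each gene as a color. SPDEF fills most of the ETS bars in control, FOXA2 most of the FOXA bars in control, and GATA3 is the smallest of the GATA segments in every library.

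GATA3, the zinc finger factor that maintains luminal differentiation, was lower in every CYT library than in any control library, but did not pass the test. It lies at chr10:8053604-8075198 on the plus strand. The raw counts were 72, 93 and 62 in control and 35, 46 and 33 in CYT replicates 1 to 3. Levels were 4.62 ± 0.283 CPM (SD, n = 3) in control and 2.79 ± 0.428 CPM (SD, n = 3) after CYT, a log2 fold change of -0.73 (SE 0.36, adjusted p = 0.163 in edgeR). Without CYT replicate 2 it was -0.87 (adjusted p = 0.0950 in edgeR). An exact permutation test of 3 against 3 libraries cannot give a two-sided p under 0.1, which is the value for groups that do not overlap.
GATA2, a GATA factor of blood and endothelial progenitors, rose after CYT. Its counts were 364, 190 and 273 in control and 930, 481 and 851 after CYT, a log2 fold change of 1.68 (SE 0.41, adjusted p = 0.0136 in edgeR). GATA6, known from endoderm, had 204, 321 and 209 counts in control and 394, 306 and 286 after CYT and was not called (0.69, adjusted p = 0.112 in edgeR). Per length, GATA3 made up 12.3%, 15.7% and 12.2% of the summed level of the 6 GATA genes in control and 2.87%, 5.98% and 3.18% after CYT.

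GRHL2, the grainyhead factor that keeps junction genes such as CDH1 active, was at 0 in 5 of the 6 libraries. It had 11 counts in CYT replicate 1 and lies on chromosome 8. Its relatives GRHL1 and GRHL3, factors of the epidermis, were low as well. GRHL1 had 35, 22 and 26 counts in control and 46, 36 and 26 after CYT (log2 fold change 0.60, adjusted p = 0.342 in edgeR). GRHL3 had 4, 11 and 7 counts in control and 23, 5 and 13 after CYT and did not pass the filter. Both overlapped between the groups.

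The splicing regulators ESRP1 and ESRP2 promote epithelial exons in FGFR2, CD44, CTNND1 and ENAH. ESRP1 was near the limit of counting, and ESRP2 was low but passed the filter. ESRP1 had 3, 0 and 2 counts in control and 2, 14 and 1 in CYT replicates 1 to 3, so that 1 CYT library held most of them. ESRP2, at chr16:68229111-68238102 on the minus strand, had 21, 39 and 16 counts in control and 17, 11 and 4 after CYT. The groups overlapped, and control replicate 2 was the highest library. ESRP2 was at 1.51 ± 0.497 CPM (SD, n = 3) in control and 0.767 ± 0.441 CPM (SD, n = 3) after CYT, a log2 fold change of -0.97 that was not called (SE 0.57, adjusted p = 0.234 in edgeR). Without CYT replicate 2 it was -0.98 (adjusted p = 0.275 in edgeR). NFATC3 overlaps the end of ESRP2 on the opposite strand with 434, 633 and 260 counts in control and 300, 268 and 227 after CYT, so some ESRP2 reads may belong to it. Exon use was not measured, since the table holds 1 value per gene.

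Among the 8 genes not chosen on their values, 4 were tested, and of these ELF3 was called lower and 0 were called higher by edgeR. At an unadjusted p under 0.05, 1 was lower and 0 were higher, and DESeq2 gave the same counts. Over all 15572 tested genes, 12.2% were called lower, 15.2% higher and 27.4% in either direction. Groups did not overlap for ELF3 and GATA3 among these 4, against 46.1% of all tested genes. Neither count is set apart from the background of the whole table. With no filter on low counts, ELF5, EHF, ESRP1 and GRHL2 had adjusted p-values of 0.342, 0.192, 0.368 and 0.138 from edgeR.

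**Figure D3:**
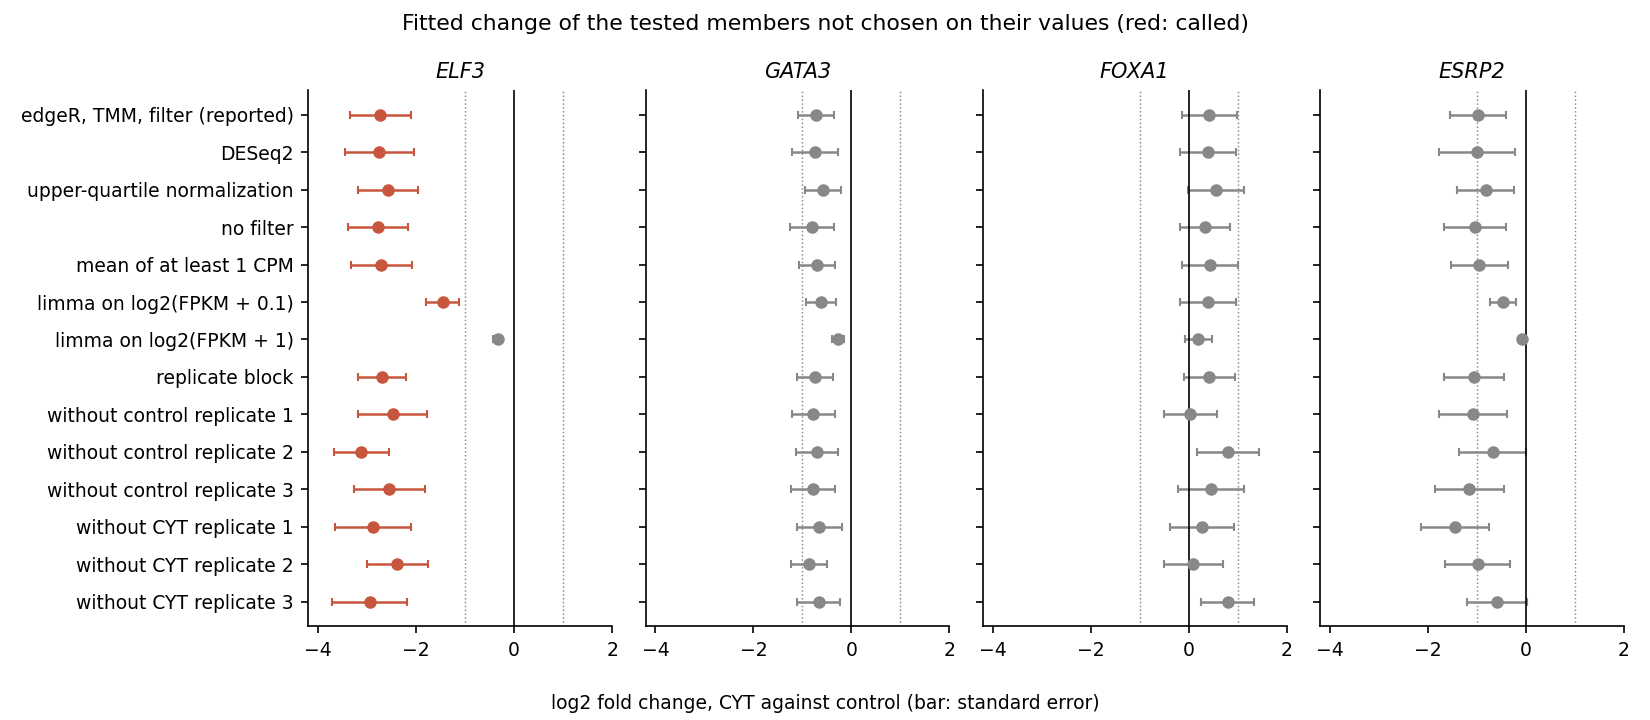
Log2 fold change of CYT against control (horizontal axis, bars are the standard error) of ELF3, GATA3, FOXA1 and ESRP2 in the reported edgeR fit and 13 alternative fits. Red points are called and dotted lines stand at -1 and 1. ELF3 is called in each fit except limma on log2(FPKM + 1), and the other 3 genes in none.

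The order of levels per length was compared within each group. In control, SPDEF was first with 4.70 ± 1.35 FPKM (SD, n = 3) and exceeded GATA3 in every library. GATA3 (0.811 ± 0.0998 FPKM), FOXA1 (0.803 ± 0.472), ELF3 (0.335 ± 0.164) and ESRP2 (0.130 ± 0.0506) followed. Each of these overlapped the next across libraries, and ESRP2 stood above ESRP1 (0.00985 ± 0.00865 FPKM) without overlap. EHF was lower still, and ELF5, GRHL2 and FOXA3 were at 0. After CYT, FOXA3 was first with 4.70 ± 1.30 FPKM (SD, n = 3) and did not overlap FOXA1 (1.09 ± 0.611 FPKM). FOXA1 overlapped GATA3 (0.498 ± 0.107 FPKM), which stood above ESRP2 (0.0670 ± 0.0391 FPKM). ELF3 (0.0508 ± 0.0211 FPKM) came next and overlapped ESRP2, and SPDEF was last at 0. Control SPDEF exceeded the mean level of 61.4% of the 12755 tested protein-coding genes and CYT FOXA3 that of 62.9%, while control GATA3 exceeded 23.7% and control ELF3 12.7%.

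Genes next to SPDEF and FOXA3 were compared to see whether the pattern extended along the chromosome. PACSIN1, which ends 2571 bases from SPDEF, had 3, 7 and 0 counts in control and 20, 0 and 8 after CYT. The pseudogene AL031577.1 on the other side had at most 5 counts in any library. SYMPK, which starts 699 bases from FOXA3 on the opposite strand and encodes a scaffold of RNA 3′ end processing, had 3774, 2854 and 2335 counts in control and 2155, 1195 and 2269 after CYT (log2 fold change -0.41, adjusted p = 0.410 in edgeR). IRF2BP1, a corepressor gene on the other side, was not called either (-0.14, adjusted p = 0.862 in edgeR). Neither SYMPK nor IRF2BP1 was at 0 in 1 group and counted throughout the other. PACSIN1 and AL031577.1 had too few control counts to show a fall, so the question could not be answered beside SPDEF.
RNPEP (log2 fold change 0.20) beside ELF3, CAT (0.04) beside ELF5, NCALD (-0.05) beside GRHL2, and AC020978.7 (-0.02) and PLA2G15 (-0.98) beside ESRP2 were tested and not called. The remaining nearest genes, AL691482.1, AL137224.1, AC087783.1, AC087783.2, AC108860.2, AP005660.1, AP001208.2, AL121790.1, RF00406, GATA3-AS1 and PRPF38AP1, had too few counts to be tested.

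The genes whose profile over the 6 libraries was most like that of SPDEF or FOXA3 were found among 12754 other tested protein-coding genes by the root-mean-square difference of mean-centred log2 CPM. For SPDEF they were CYR61 (0.69), ACSF3 (1.09) and ANKRD1 (1.09), which kept counts after CYT. CYR61 had 45187, 32576 and 28593 counts in control and 1176, 804 and 785 after CYT. For FOXA3 they were OVOL1 (0.13), NKPD1 (0.19) and ID2 (0.47). NKPD1 had 1, 2 and 2 counts in control and 269, 152 and 325 after CYT. All 3 control libraries of FOXA3 are at 0 by its choice, and among CYT libraries OVOL1 was highest in replicate 1 and FOXA3 in replicate 3.

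The lists that follow hold other genes of the same programs, and each is described by its counts, since no test of a list was made. Relatives of the 10 genes numbered 14, of which 10 were tested, 1 was called higher (GATA2) and 1 lower. Over all tested genes, 15.2% were called higher, 12.2% lower and 27.4% in either direction. The gene that fell was TFCP2L1, a grainyhead-related factor, with 76, 93 and 71 counts in control and 12, 4 and 8 after CYT (log2 fold change -3.05, adjusted p = 0.00237 in edgeR). The median log2 fold change of this list was 0.28, against 0.0064 over all tested genes.

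Epithelial genes of junctions, polarity and surface proteins numbered 32, of which 22 were tested, 3 were called higher and 3 lower. Over all tested genes, 15.2% were called higher and 12.2% lower. With the replicate block, 4 genes of this list were called higher and 5 lower. OVOL1, a zinc finger repressor of mesenchymal genes, had 0 counts in each of the 3 control libraries and 215, 124 and 183 after CYT, at least 68.6-fold higher. It shares this pattern with FOXA3, and its relative OVOL2 had 2 counts in CYT replicate 1 and 0 elsewhere. OVOL1 passed the filter through its CYT libraries alone. Its control mean was under 1 CPM, where 60.4% of all tested genes were called higher and the filter favors rises. The lipolysis-stimulated receptor gene LSR and the desmosome gene DSP were called higher, with log2 fold changes of 1.37 and 1.05 (adjusted p = 0.0460 and 0.0402 in edgeR). The plakin gene EVPL, the desmosome gene PKP3 and the motor gene MYO5B fell, at -3.48, -2.63 and -1.80 on the log2 scale, and were called.
CDH1, the E-cadherin gene, had 0 counts in each control library and 6, 16 and 2 after CYT, and did not pass the filter. EPCAM had 12, 4 and 7 counts in control and 10, 9 and 11 after CYT, and did not pass either. The list's median was -0.11, also with OVOL1 at its bound. The call of LSR ended without any control replicate, without CYT replicate 1 and without CYT replicate 3 (adjusted p from 0.0652 to 0.155 in edgeR). That of DSP ended without each library in turn (adjusted p from 0.0468 to 0.170, the lowest with a log2 fold change of 0.76 without CYT replicate 2), and that of MYO5B without any control replicate or CYT replicate 1 (0.0508 to 0.0841).

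Luminal genes numbered 29, of which 19 were tested, 3 were called higher and 4 lower, with a median of -0.30. KRT19, a keratin of simple epithelia, had 6722, 3767 and 3395 counts in control and 546, 147 and 378 after CYT, with a log2 fold change of -3.45 (SE 0.52, adjusted p = 0.00187 in edgeR). MLPH, an adaptor of vesicle transport, and the chaperone gene DNAJC12 fell as well, at -2.30 and -1.51 on the log2 scale, and were called. The transcription factor genes TFAP2A and MYB and the zinc transporter gene SLC39A6, a target of the estrogen receptor, were called higher, with log2 fold changes of 2.67, 2.64 and 2.20. Without CYT replicate 2, SLC39A6 was at 1.48 and still called (adjusted p = 0.00296 in edgeR). TFAP2A had 26, 32 and 19 counts in control and 146, 116 and 144 after CYT. The other 12 tested genes were not called, and over all tested genes 15.2% were called higher and 12.2% lower.
The simple keratin genes KRT8 and KRT18 were not called (log2 fold change -0.41 and -1.02, adjusted p = 0.519 and 0.0549 in edgeR), but KRT18 was called lower in 5 of 13 alternatives, namely DESeq2, no filter, limma with either pseudocount and the replicate block (-1.07 and adjusted p = 0.0193 in the block). AGR2 (-0.33) and TFF3 (0.20), genes of secreted and secretory-pathway proteins known as SPDEF targets in mucous cells, were not called. AGR2 had 247, 429 and 343 counts in control and 227, 233 and 220 after CYT. The call of DNAJC12 ended without control replicate 3, CYT replicate 1 or CYT replicate 3 (adjusted p 0.0537, 0.0605 and 0.0678 in edgeR).

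Secretory cell genes numbered 16, and 3 of them (TFF1, TFF3 and AGR2) also stand in the luminal list. Of 7 tested, 2 were called higher and 0 lower by edgeR, against 15.2% higher and 12.2% lower over all tested genes. At an unadjusted p under 0.05, 1 was lower, and DESeq2 and limma each called 1 lower. The mucin gene MUC5AC had 1822, 1303 and 969 counts in control and 929, 210 and 1044 after CYT and did not reach a call (log2 fold change -0.63, adjusted p = 0.415 in edgeR). The mucin gene MUC5B was lower in every CYT library than in any control library, with 1427, 942 and 1140 counts in control and 457, 117 and 474 after CYT (log2 fold change -1.50, adjusted p = 0.0541 in edgeR). It was not called in the reported fit but was called lower in 6 of 13 alternatives, among them the replicate block (-1.71, adjusted p = 0.00364) and the fit without CYT replicate 2 (-1.07, adjusted p = 0.0220). MUC2, with 24, 16 and 16 counts in control and 0, 0 and 9 after CYT, did not overlap either and was called lower only without CYT replicate 3 (adjusted p = 0.0123 in edgeR). FCGBP, a mucus protein gene, had 5, 3 and 0 counts in control and 27, 10 and 36 after CYT (log2 fold change 3.43, adjusted p = 0.0151 in edgeR). Its control mean was under 1 CPM, where 60.4% of all tested genes were called higher and the filter favors rises. CREB3L1, a transcription factor of secretory cells, rose with a log2 fold change of 1.73 (adjusted p = 0.0171 in edgeR). The median of the list was -0.33. The call of FCGBP ended without control replicate 2, control replicate 3 or CYT replicate 3 (adjusted p 0.0503, 0.0515 and 0.0609), and that of CREB3L1 without these or CYT replicate 1 (0.0528 to 0.0700).

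Genes of endoderm and liver, where FOXA3 is known to act, numbered 14, of which 4 were tested, 3 were called higher and 0 lower by edgeR. Of these 4, 0 were lower at an unadjusted p under 0.05 or by DESeq2. AFP, a fetal serum protein gene, had 0, 9 and 4 counts in control and 36, 38 and 23 after CYT (log2 fold change 3.14, adjusted p = 0.0150 in edgeR). The nuclear receptor gene NR5A2 and the homeobox gene PROX1 had log2 fold changes of 2.41 and 2.01 (adjusted p = 0.0178 and 0.0426 in edgeR). ALB, the albumin gene, had 0 counts in control and 12, 14 and 9 after CYT, and HNF4A, a hepatocyte factor, 0 in control and 4, 0 and 2 after CYT, with overlapping groups. ONECUT1, another hepatocyte factor gene that was not tested, went the other way, from 4, 13 and 12 counts in control to 0, 0 and 3 after CYT without overlap. Summed over the list, levels were 3.22, 4.42 and 2.88 CPM in control and 12.3, 11.9 and 11.4 CPM after CYT, with no gene highest in every library.
The median log2 fold change of the 4 tested genes was 2.21. The 3 called genes had a control mean under 1 CPM, where 60.4% of all tested genes were called higher and the filter favors rises. The call of AFP ended without control replicate 3 (adjusted p = 0.0618 in edgeR), that of NR5A2 without control replicate 1, control replicate 3 or CYT replicate 1 (0.0776, 0.0862 and 0.0562), and that of PROX1 without these or CYT replicate 2 (0.0605 to 0.148).

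Repressors that oppose the epithelial program numbered 14, of which 10 were tested, 2 were called higher and 1 lower, with a median of 0.36. Shares over all tested genes were 15.2% called higher and 12.2% lower. SNAI1, a repressor of CDH1, had 298, 162 and 194 counts in control and 1778, 563 and 1543 after CYT (log2 fold change 2.81, SE 0.49, adjusted p = 0.00330 in edgeR). The paper reports the other direction in MDA-MB-231-DR, with Snail RNA and protein lowered by CYT (qPCR and Western blot). In the same experiments it reports Vimentin and N-Cadherin lowered and E-Cadherin raised. Here VIM was called lower, CDH1 was counted after CYT alone and was not tested, and N-Cadherin is not described. The dose and duration of CYT in these libraries are not named, so the comparison with SNAI1 may be of unlike treatments. The forkhead gene FOXC1 had 227, 193 and 183 counts in control and 851, 658 and 747 after CYT (log2 fold change 2.15, adjusted p = 0.00142 in edgeR). For both, the lowest CYT library exceeded the highest control library. ZEB1 (-0.28), ZEB2 (0.36) and SNAI2 (-0.27) were not called, with adjusted p of 0.648, 0.636 and 0.645 from edgeR. The sign of ZEB2 turned without CYT replicate 2 (-0.39), and that of ZEB1 without control replicate 2. TCF3, a basic helix-loop-helix factor gene, was called lower (log2 fold change -1.35, adjusted p = 0.0432 in edgeR). Its call ended without control replicate 1, control replicate 3, CYT replicate 1 or CYT replicate 3 (adjusted p from 0.0550 to 0.123).

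Other splicing regulators with cell type patterns numbered 20, of which 16 were tested. By edgeR 2 were called lower and 0 higher, against 12.2% lower and 15.2% higher over all tested genes. At an unadjusted p under 0.05 or by DESeq2, 0 of these regulators were higher. PTBP1, a repressor of many tissue exons, had 5057, 8265 and 4203 counts in control and 1228, 928 and 1583 after CYT (log2 fold change -1.92, adjusted p = 0.00325 in edgeR). KHDRBS1, an RNA-binding signaling protein gene, was called lower at -1.01 (adjusted p = 0.0483 in edgeR), but not with the replicate block (-0.97, adjusted p = 0.0289). Its call ended as well without control replicate 1, control replicate 3, CYT replicate 1 or CYT replicate 3 (adjusted p from 0.0973 to 0.186). RBFOX2 (-0.26) and QKI (0.06), regulators of mesenchymal exons, and RBM47 (-1.18), an epithelial one, were not called. With the replicate block, and without CYT replicate 2, RBM47 was called lower (adjusted p = 0.0377 and 0.0346 in edgeR). The median was -0.39.

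Genes that host exons known to respond to ESRP proteins numbered 10, of which 9 were tested, with a median of -0.54. By edgeR 2 were called lower and 0 higher, against 12.2% lower and 15.2% higher over all tested genes. At an unadjusted p under 0.05, 1 of the list was higher, and DESeq2 called 0 higher. MAGI1 and SCRIB, junction and polarity scaffold genes, had log2 fold changes of -2.67 and -2.48 (adjusted p = 0.00133 and 0.00553 in edgeR). CD44 (-0.19), CTNND1 (-0.78) and ENAH (-0.54) were not called, and the sign of ENAH turned without control replicate 1. FGFR2 had 0 counts in every library. Thus the gene through which ESRP action is best known could not be followed in these cells.

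Markers of MDA-MB-231 were lower where called. Of 10 tested, 3 were called lower and 0 higher by edgeR, against 12.2% lower and 15.2% higher over all tested genes. The 3 were FOSL1, PLAU and VIM, at -2.84, -2.12 and -1.30 on the log2 scale. Of the markers, 0 were higher at an unadjusted p under 0.05 or by DESeq2. VIM, the vimentin gene and the most abundant of them, had 36428, 44600 and 38144 counts in control and 13599, 15720 and 11463 after CYT. Summed levels were 5986, 5609 and 5993 CPM in control and 2674, 3058 and 2974 CPM in CYT replicates 1 to 3. The median log2 fold change was -0.77. The part of this shift in the values of SPDEF, ELF3 and FOXA3 was not tested. Of 10 markers of blood, endothelial and neural cells, 3 were tested and 0 were called in either direction by edgeR or DESeq2, with 1 higher at an unadjusted p under 0.05. Their summed levels were 5.39, 5.48 and 6.18 CPM in control and 5.15, 5.62 and 8.90 CPM after CYT, with the most counts for GFAP in every library and CD3E at 0 in every library, and the median log2 fold change of the 3 was 0.17.

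**Figure D4:**
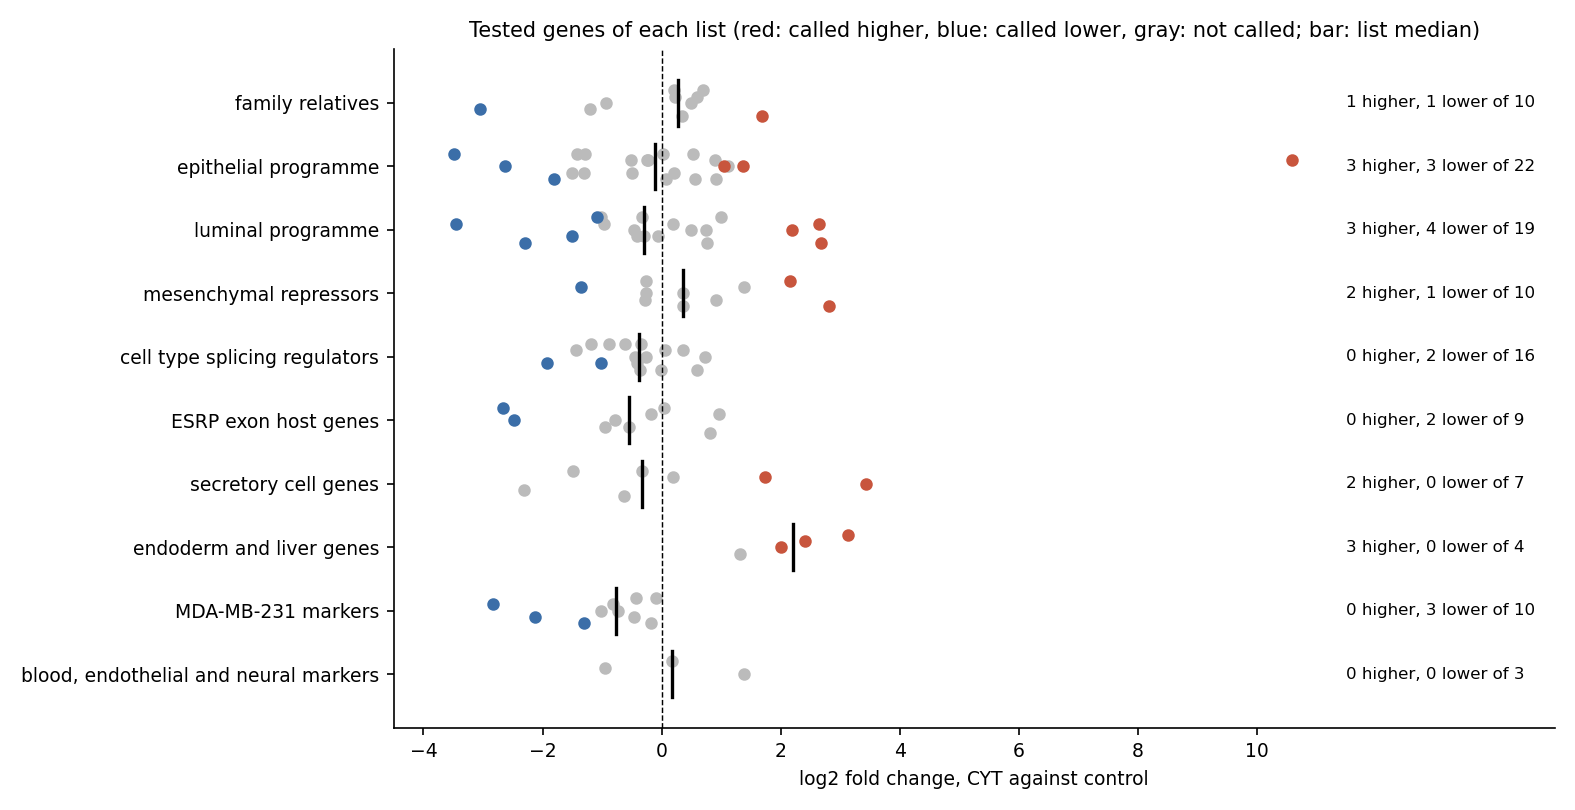
Log2 fold change of CYT against control (horizontal axis) of every tested gene in the 10 lists, with red for called higher, blue for called lower and gray for not called. Black bars are list medians and the dashed line is the median of all tested genes. The point at the far right is OVOL1, whose fitted value depends on the prior count, since its control counts are 0. The list of MDA-MB-231 markers has points left of 0 alone.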

How the data were processed

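The authors sequenced separated mRNA (Illumina NovaSeq), dropped reads of poor quality, with adapter or from ribosomal RNA, aligned the rest with Hisat2 (hg38, with FastQC 0.12.1, per the submitters' processing notes), and deposited raw counts and FPKM per gene. The counting program is not given in the sources used here. The deposited FPKM values, by Stringtie per the methods, were used for levels per length and in limma.

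Counts were tested in edgeR 4.0.16 (R 4.3.3) by quasi-likelihood over the 15572 genes kept by filterByExpr at a minimum count of 10, with TMM normalization and without a replicate term. P-values were adjusted by the Benjamini-Hochberg method over all tested genes, and calls needed this to be under 0.05 with a log2 fold change past 1 or -1. The tests were tried on simulated data. The common biological coefficient of variation was 37.5%. Libraries with the same number deviated from their group means together (r = 0.188, 0.458 and 0.124 across genes, each over 0.1). Control 1 with CYT 3 gave 0.303 and control 3 with CYT 1 gave 0.201, both higher than the same-numbered values of these libraries. Pairing by replicate number is therefore not established, and the replicate block is given as an alternative only.

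The 10 genes and all gene lists were chosen with earlier results of these data known. Named are the 10 genes, in each list the 3 called genes that rose most and the 3 that fell most, a set of list genes named whatever their values, the 3 genes most like SPDEF and FOXA3, and the nearest annotated genes. MUC5B, MUC2 and ONECUT1 were added after their values were seen. Gene positions are those of the table, with strand from GENCODE release 29. The alternatives were limma 3.58.1 with log2(FPKM + 0.1) or log2(FPKM + 1), DESeq2 1.42.0, all genes unfiltered, genes with a mean of 1 CPM or more, upper-quartile scaling, the replicate number as a block, leaving out each library, and, for counts alone, calls by adjusted p only. For genes low in control they were added after the data were seen.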

Additional observations from a re-analysis of the deposited data

How the results depend on the processing

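ELF3, ESRP2, FOXA1 and GATA3 kept their sign in all 13 alternative fits. The sign of SPDEF and FOXA3 was fixed by their choice. With limma on log2(FPKM + 1), which shrinks changes of low genes, ELF3 was not called (log2 fold change -0.34), so 0 of the 8 genes not chosen on their values were called, against 1 in every other setting. Over the alternatives, the adjusted p of ELF3 ran from 0.00082 to 0.0427. That of GATA3 ran from 0.0950 to 0.334, of ESRP2 from 0.173 to 0.535 and of FOXA1 from 0.329 to 0.972. With the replicate block ELF3 was at -2.69 (adjusted p = 0.00308 from edgeR), and that fit called 5011 genes against 4274 without the block. The block changed no call of ELF3, ESRP2, FOXA1 or GATA3, the members it could be run on that carry a call. In the lists it ended the call of KHDRBS1 and added calls of FOXA2, CLDN7, CGN, AP1M2, KRT18, RBM47, CELF2, MUC5B and CAV1.

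The fitted log2 fold changes of SPDEF (-10.37) and FOXA3 (10.48) depend on the prior count, since 1 group had no count. For SPDEF they were -9.68 with DESeq2, -5.54 with limma on log2(FPKM + 0.1) and -2.48 on log2(FPKM + 1), and for FOXA3 5.55 and 2.48 with limma.

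Of all genes, limma on log2(FPKM + 1) called 2375 (1265 higher and 1110 lower), and 27.0% of genes low in control against 60.6%. It called 1 of the relatives, 3 epithelial, 4 luminal, 1 splicing and 0 endoderm genes. With the other pseudocount, 0.1, 1 splicing and 1 endoderm gene were called. Upper-quartile normalization, which moved the median of all genes from 0.0064 to 0.16, called 1 splicing gene, as did a mean of at least 1 CPM, which called 1 secretory gene. The causes were not tested.

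With a library left out, from 2891 to 4979 genes were called (1683 to 2651 higher, 1208 to 2328 lower), and from 45.1% to 59.2% of genes low in control. Called were 2 to 3 relatives, 3 to 7 epithelial, 5 to 8 luminal, 2 to 3 mesenchymal repressor, 1 to 4 splicing, 2 to 3 ESRP exon host, 0 to 3 secretory, 1 to 5 endoderm and 3 to 4 MDA-MB-231 marker genes, and 0 of the blood, endothelial and neural markers. Log2 fold changes ran from -10.54 to -10.09 for SPDEF, -3.12 to -2.39 for ELF3, -1.44 to -0.59 for ESRP2, 0.04 to 0.81 for FOXA1, 10.31 to 10.74 for FOXA3 and -0.87 to -0.65 for GATA3. Fewer samples enter these fits.

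At this depth 3 counts amount to at most 0.238 CPM (in CYT replicate 3, the smallest library after TMM scaling), so a fall of ELF5, EHF, ESRP1 or GRHL2 from their control levels could not be seen.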
